A study of Ovis aries with 15 samples.

Results

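Aquaporins are the membrane channels through which water crosses cells. The genes described here are the 7 aquaporins AQP1, AQP3, AQP4, AQP5, AQP7, AQP9 and AQP11, found by symbol among the 24691 features of the expression table, and all 7 were present. RNA-seq had been carried out on needle biopsies of the mammary gland of first-lambing, 2-year-old Romney ewes, with 9 libraries from late pregnancy (135 ± 2.4 days of gestation, SD) and 6 from lactation (15 ± 1.27 days post partum, SD). The ewes were grouped by what their own dams had eaten in early pregnancy. The dams of HMLP (late pregnancy) and HML (lactation) ewes were fed ad libitum, those of MMLP and MML ewes at maintenance and those of LMLP and LML ewes at sub-maintenance. Each feed group was represented by 3 late pregnancy and 2 lactation libraries. All of these dams were on maintenance feed from mid pregnancy onwards, and the ewes themselves were kept alike. Each library held RNA pooled from several ewes, so differences between individual ewes were not measured. The methods describe sampling in late pregnancy and again in early lactation, so pools of both states can share ewes. The labels do not link the pools of the different states to the same ewes, and the main tests took the pools as independent.

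Each aquaporin subunit forms its own pore. AQP1, AQP4 and AQP5 pass water, while AQP3, AQP7 and AQP9, the aquaglyceroporins, also pass glycerol, and AQP11 is an unusual member found mostly on membranes inside the cell. Milk is mostly water, which follows lactose osmotically into the secretory vesicles and the alveolar lumen, so water has to pass from the capillaries through the secretory cells. In mammary tissue AQP1 is known from the endothelium of capillaries and AQP3 from the basolateral membrane of secretory cells, while AQP5 is the water channel of the apical membrane in several glands.

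Reads placed on genes numbered between 7597938 and 19823166 in the libraries of late pregnancy, and between 10352962 and 25679416 in those of lactation. Values are given as counts per 1000000 reads (CPM) on library sizes scaled by the trimmed mean of M values (TMM), whose factors ran from 1.56 to 1.83 for late pregnancy and from 0.432 to 0.505 for lactation. The scaled library sizes thus ran from 10942394 to 29599906 reads for late pregnancy and from 4549945 to 11491285 for lactation, so the same CPM rested on fewer reads in most lactation libraries. The libraries carried the markers of mammary epithelium: the summed level of 7 luminal epithelial markers was 1586 to 1867 CPM in late pregnancy and 2438 to 2703 CPM in lactation. Markers of red cells (0.0870 to 1.61 CPM summed over 4 genes) and of skeletal muscle (0.352 to 2.34 CPM over 5 genes) were near 0 in every library. The library LMLP 2 stood apart in markers of skin keratinocytes, at 56.9 CPM summed over 5 genes against 2.52 to 7.15 CPM in the other libraries, and results that rest on it are given with and without it.

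Between the states, AQP3 rose and AQP5 fell, AQP1 and AQP11 did not pass the test, and AQP4, AQP7 and AQP9 had too few exon reads to pass the filter on low counts. The test was edgeR's quasi-likelihood F-test with Benjamini-Hochberg adjustment over 13345 tested genes and a threshold of 0.05 on the adjusted p. Of the 4 members tested, 2 were called, beside a background of 68.4% of all tested genes (35.2% lower and 33.1% higher in lactation), so the share of aquaporins called was not above that of genes at large. The log2 changes were 2.12 for AQP3 and -2.62 for AQP5, and the median over all tested genes was -0.030. That median is signed and set by the scaling, so it does not show how large the change of a typical gene was. In bulk tissue, a change in the number of cells that express a gene and a change in RNA per cell cannot be told apart.

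**Figure D1:**
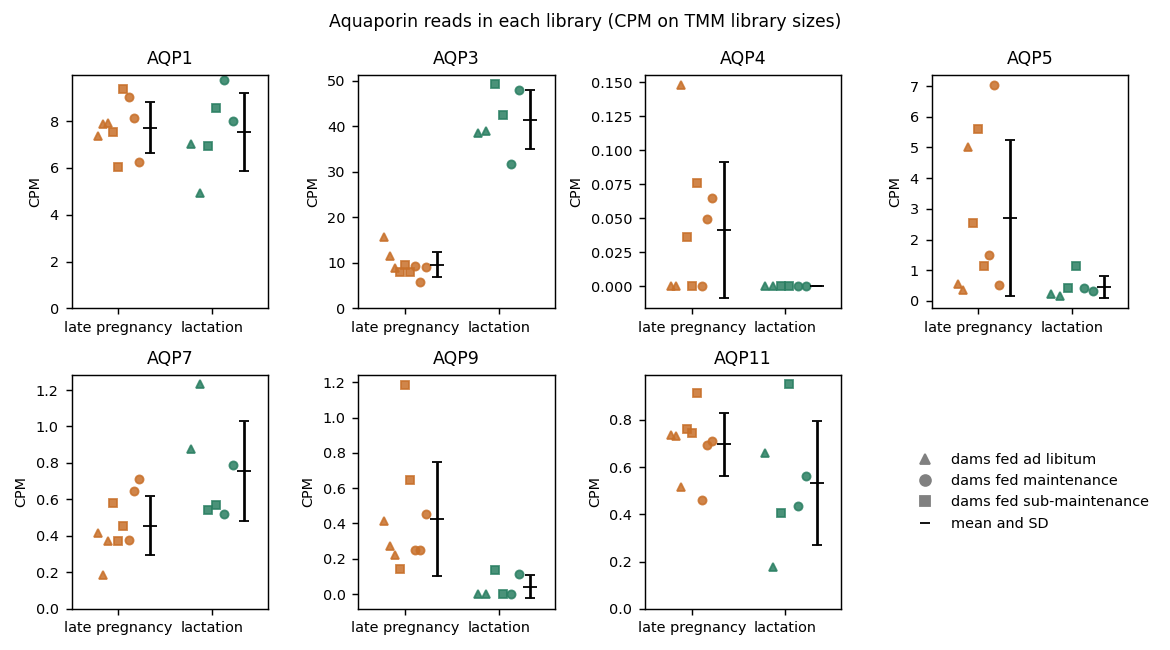
Level of each of the 7 aquaporins in every library, in CPM on TMM library sizes, with late pregnancy (9 libraries, orange) on the left and lactation (6 libraries, green) on the right of each panel. Symbols give the feed of the dams, and bars the mean and SD; AQP3 is the panel in which all lactation libraries (31.8 to 49.2 CPM) sit far above all late pregnancy libraries (5.89 to 15.6 CPM), and the vertical scales differ between panels.

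AQP3, the aquaglyceroporin of the basolateral membrane, lies on chromosome 2 from 37502236 to 37509857 in 6 exons. Coordinates here are those of the deposited table, for which the submitters' processing notes name the genome build Oar_v3.1. Late pregnancy libraries had 5.89 to 15.6 CPM of AQP3 (median 9.12, 119 to 339 reads), and lactation libraries 31.8 to 49.2 CPM (median 40.7, 175 to 425 reads). The states did not overlap: the lowest lactation library, MML 1, was above the highest late pregnancy library, HMLP 1. The mean was 9.57 ± 2.73 CPM (SD, n = 9) and 41.5 ± 6.51 CPM (SD, n = 6). AQP3 was 4.35-fold higher in lactation (95% interval 3.47 to 5.44 on 13 degrees of freedom), a log2 change of 2.12 (SE 0.15) with an edgeR adjusted p of 1.6e-10. Its log2 change was 1.77 among the libraries whose column names carry lane 7 (adjusted p = 0.00013) and 2.42 among those of lane 8 (adjusted p = 4.7e-10). By the labels the reads of each library came from 2 combined lanes, so the lane in a name is not a known batch.

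The rise of AQP3 was a rise against the rest of the transcriptome. On library sizes without TMM scaling the median change over all tested genes moved to -1.94, and AQP3 was then at 0.21 (adjusted p = 0.13), which is 2.15 above that median. In the deposited RPKM (reads per kilobase of exon per 1000000 reads on genes) AQP3 ranged from 5.45 to 12.6 in late pregnancy and from 8.69 to 12.2 in lactation. The states overlapped on this scale, with means of 8.40 ± 2.10 and 10.6 ± 1.33 (exact permutation test, two-sided, p = 0.044, without adjustment). A ratio between members within a library is free of the scaling. For each AQP1 read, a late pregnancy library had 0.726 to 2.12 AQP3 reads (median 1.12) and a lactation library 3.26 to 7.93 (median 5.73), again without overlap.

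AQP1, the water channel of capillaries and red cells, lies on chromosome 4 from 65387134 to 65398811 in 4 exons. Late pregnancy libraries had 6.05 to 9.35 CPM of it (median 7.86, 86 to 246 reads), and lactation libraries 4.92 to 9.75 CPM (median 7.52, 28 to 112 reads). The states overlapped, and the lowest and the highest of the 15 libraries, HML 2 and MML 1, were both lactation libraries. The means were 7.72 ± 1.10 and 7.53 ± 1.65 CPM, and the fitted fold was 0.992 (95% interval 0.814 to 1.21), with a log2 change of -0.011 (SE 0.132, edgeR adjusted p = 0.95). Without TMM scaling AQP1 was lower in lactation by a log2 change of -1.91 (adjusted p = 1.2e-11), but the median gene moved by -1.94, leaving AQP1 0.026 above it. In RPKM AQP1 ranged from 11.6 to 17.1 in late pregnancy and from 2.48 to 5.42 in lactation, without overlap (exact permutation test, two-sided, p = 0.0002, the smallest that 5005 splits can give). Whether AQP1 is called thus depended on whether reads were scaled to the whole library or to the typical gene.

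Of the endothelial markers, 6 of 10 were in the table, and 5 of those 6 fell, with none higher. Their summed level was 166 to 222 CPM in late pregnancy and 102 to 142 CPM in lactation, without overlap, and the largest fall was that of EMCN, a sialomucin of capillaries and veins (log2 change -0.96, SE 0.147, edgeR adjusted p = 9e-06). AQP1 had a log2 change of -0.011 on the same scale. Without TMM scaling all 6 were lower.

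The AQP1 feature lies inside the feature of GHRHR, the receptor for growth hormone releasing hormone, which runs from 65350393 to 65399852 on chromosome 4. No library had a read on the exons of GHRHR, but 878 to 2286 reads per late pregnancy library and 295 to 806 per lactation library lay on its whole span outside exons. That was 7.41 to 11.9 GHRHR reads for each AQP1 read in late pregnancy and, in lactation, 6.28 to 13.4. The reads outside the exons of GHRHR had a log2 change of -0.29 (SE 0.105, edgeR adjusted p = 0.022). GHRHR was looked at after the values were seen. The library kit does not keep the strand, so reads of the overlapping features cannot be told apart by strand. Of AQP1 exon reads 78.3% were uniquely placed in late pregnancy and 78.2% in lactation, whereas every other member had 100% uniquely placed reads.

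AQP5, the apical water channel of several exocrine glands, lies on chromosome 3 from 136155830 to 136159078, between AQP6 and AQP2. In late pregnancy it ranged from 0.366 to 7.03 CPM (median 1.51, 4 to 166 reads), and in lactation from 0.176 to 1.14 CPM (median 0.373, 1 to 6 reads). The states overlapped: HMLP 2, MMLP 3, HMLP 1 and, by the third decimal, LMLP 3 were below LML 2, the highest lactation library. The means were 2.70 ± 2.53 CPM (SD, n = 9) and 0.453 ± 0.353 CPM (SD, n = 6). AQP5 fell 6.13-fold, a log2 change of -2.62 (SE 0.819, 95% interval -4.39 to -0.848, edgeR adjusted p = 0.0080). The exact permutation test gave p = 0.043 on CPM and 0.025 on RPKM (two-sided, without adjustment). For each AQP1 read, late pregnancy libraries had 0.0465 to 0.927 AQP5 reads and lactation libraries 0.0313 to 0.133, with overlap. Within single dam feed groups AQP5 was lower in lactation in each, but not called (edgeR adjusted p 0.0942 to 0.237). AQP5 reached 10 reads in 7 of 9 late pregnancy and 0 of 6 lactation libraries, so it passed the filter through late pregnancy alone, which favours genes that fall. Without the filter its log2 change was -2.67 (adjusted p = 0.0055). Without LMLP 2 the log2 change was -2.39 (adjusted p = 0.014), and without MMLP 2, the library with the most AQP5, it was -2.31 (adjusted p = 0.012). Among libraries of lane 7 it was -2.92 (adjusted p = 0.077) and among those of lane 8 -2.38 (adjusted p = 0.037).

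AQP5 was the most variable of the members that passed the filter. Its highest late pregnancy library was 19.2 times its lowest, beside 1.55 times for AQP1 and 2.65 times for AQP3. The 3 highest libraries, MMLP 2 (7.03 CPM), LMLP 2 (5.61 CPM) and HMLP 3 (5.03 CPM), came from different dam feed groups. LMLP 1, MMLP 1 and LMLP 3 had 2.53, 1.51 and 1.14 CPM, and HMLP 1, MMLP 3 and HMLP 2 had 0.553, 0.517 and 0.366 CPM. Each feed group thus had libraries with high and with low AQP5, except that no LMLP library was under 1.14 CPM. LMLP 2 carried the skin markers at 56.9 CPM, but MMLP 2, with more AQP5, had 3.12 CPM of them. Luminal epithelial markers summed to 1593, 1723 and 1832 CPM in MMLP 2, LMLP 2 and HMLP 3. They summed to 1867, 1586 and 1752 CPM in LMLP 1, MMLP 1 and LMLP 3, and to 1758, 1798 and 1866 CPM in HMLP 1, MMLP 3 and HMLP 2. Fibroblast markers summed to 626.5, 528.1 and 599.6 CPM in MMLP 2, LMLP 2 and HMLP 3, and to 369.1, 607.2 and 402.4 CPM in HMLP 1, MMLP 3 and HMLP 2. The part of these cell types in the AQP5 levels was not tested.

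**Figure D2:**
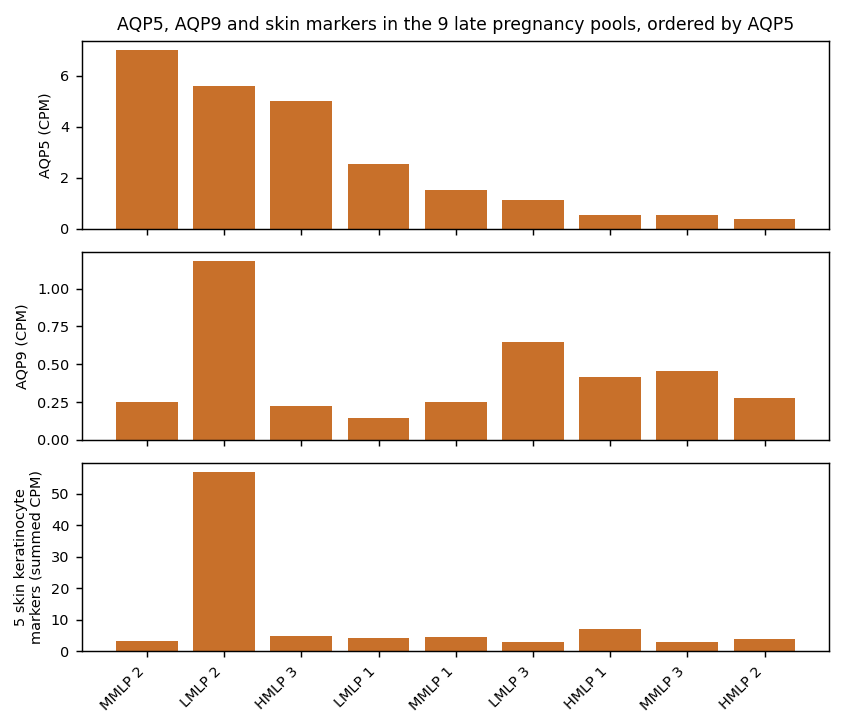
AQP5, AQP9 and the summed level of 5 skin keratinocyte markers (CPM) in the 9 late pregnancy libraries, ordered by AQP5. LMLP 2 holds the highest AQP9 (1.18 CPM) and the high skin markers (56.9 CPM), while MMLP 2 has the highest AQP5 (7.03 CPM) with skin markers at 3.12 CPM.

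AQP9, the aquaglyceroporin known from liver and white blood cells, lies on chromosome 7 from 49082756 to 49133954. It had 3 to 35 exon reads per late pregnancy library (0.145 to 1.18 CPM, median 0.274) and 0 or 1 per lactation library (0 to 0.136 CPM, median 0). The states did not overlap, but LMLP 2 alone held 35 of the 89 late pregnancy reads. With 2 reads in all of lactation, AQP9 was 10.2-fold lower there, with a counting interval of 2.73 to 85.2 that leaves out the spread between libraries. The exact permutation test of mean CPM gave p = 0.0044 (two-sided, without adjustment). In a fit without the filter on low counts the log2 change was -3.12 (SE 0.843, edgeR adjusted p = 0.0033). On library sizes without TMM scaling AQP9 was 38.2-fold lower (counting interval 10.3 to 320.2). Without LMLP 2, on TMM sizes, 54 reads remained in late pregnancy and AQP9 was 7.31-fold lower in lactation (1.93 to 61.9). The permutation p was then 0.0013 (exact, two-sided), and the log2 change without the filter -2.69 (SE 0.717, edgeR adjusted p = 0.0030).

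Most reads on AQP9 lay outside its exons, and these gave it enough reads to be tested. There were 12 to 88 such reads per late pregnancy library and 0 to 2 per lactation library, and the states did not overlap. Reads outside exons of AQP9 fell by 3.93 on the log2 scale (SE 0.57, edgeR adjusted p = 2.6e-06), beside a background of 58% of 10344 genes called on such reads (29% lower). With 0 to 2 such reads in lactation, AQP9 passed the filter through late pregnancy alone, so a fall was the one change this test could find. The log2 change was -3.77 without LMLP 2 (adjusted p = 2.6e-06). The sum of 5 neutrophil markers was 0.743 to 1.86 CPM in late pregnancy and 5.50 to 16.3 CPM in lactation. Most of the lactation sum was MPO, the granule peroxidase (means 0.0379 and 12.9 CPM). Means were 0.278 and 0.252 CPM for CXCR2, 0.181 and 0.243 CPM for S100A8, and 0.194 and 0.203 CPM for S100A12. The part of white blood cells in the AQP9 level was not tested. CSF3R, the receptor for the growth factor of neutrophils, had a log2 change of -0.46 (SE 0.37, adjusted p = 0.28). Macrophage markers summed to 55.9 to 69.3 CPM and 51.9 to 65.5 CPM, with 2 of 5 lower and 1 higher.

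AQP7, the glycerol channel of fat cells, lies beside AQP3 on chromosome 2, from 37548639 to 37564980. It had 2 to 16 reads per late pregnancy library (0.183 to 0.711 CPM, median 0.415) and 3 to 7 per lactation library (0.522 to 1.23 CPM, median 0.680). The states overlapped, with 3 lactation libraries above every late pregnancy library. The means were 0.456 ± 0.163 CPM (SD, n = 9) and 0.756 ± 0.274 CPM (SD, n = 6), and the exact permutation test gave p = 0.014 (two-sided, without adjustment). In RPKM the order was the opposite, with 0.497 ± 0.190 in late pregnancy and 0.237 ± 0.0826 in lactation (p = 0.0080 by the same exact test), so AQP7 has no direction that holds on both scales. Without the filter its log2 change was 0.60 (SE 0.311, edgeR adjusted p = 0.12), and on reads of the whole gene 0.61 (SE 0.242, adjusted p = 0.041). None of the 5 adipocyte markers tested was called, and the sum over 7 genes was 249 to 452 CPM in late pregnancy and 327 to 411 CPM in lactation. Without TMM scaling all 5 were lower.

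AQP11, on chromosome 21 from 17771872 to 17783738, had 7 to 24 reads per late pregnancy library (0.460 to 0.912 CPM, median 0.731) and 1 to 5 per lactation library (0.176 to 0.952 CPM, median 0.499). The states overlapped, and LML 2, a lactation library, was the highest of all. Its log2 change was -0.45 (SE 0.281, 95% interval -1.06 to 0.156, edgeR adjusted p = 0.17). On reads outside exons, of which it had 12 to 94 per library, the log2 change was -0.23 (SE 0.152, adjusted p = 0.20). Without TMM scaling it was -2.32 (adjusted p = 4.6e-08), or -0.38 relative to the median gene.

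AQP4, on chromosome 23 from 30335649 to 30345632, the water channel of astrocytes in the brain, had 7 exon reads in all, 0 to 2 per late pregnancy library. It had no reads in any lactation library, and the exact permutation test of mean CPM of AQP4 gave p = 0.071 (two-sided, without adjustment). The counting interval for its ratio of lactation to late pregnancy ran from 0 to 3.04 on TMM sizes and from 0 to 0.809 on library sizes without TMM scaling. A difference was thus not detectable on the TMM scale, while the other interval lies under 1 but covers counting error only.

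The other members of the family in the table were at or near 0, except MIP (AQP0), the lens aquaporin. AQP10 had no reads, AQP2 had 2, AQP6 had 6 and AQP8 had 9 over the 15 libraries. MIP ranged from 1.29 to 2.78 CPM in late pregnancy and from 1.65 to 2.81 CPM in lactation, with a log2 change of 0.30 (SE 0.198, edgeR adjusted p = 0.19).

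Levels were compared between genes per kilobase of exon. In late pregnancy the means in CPM per kilobase were 9.59 ± 1.36 for AQP1, 5.85 ± 1.67 for AQP3, 3.36 ± 3.15 for AQP5, 0.617 ± 0.119 for AQP11, 0.342 ± 0.122 for AQP7, 0.207 ± 0.156 for AQP9 and 0.0397 ± 0.0478 for AQP4 (SD, n = 9). The ranges of all neighbours in this order overlapped, although AQP1 was above AQP3 in 8 of 9 libraries and AQP11 above AQP7 in 9 of 9. In lactation the order was AQP3 (25.4 ± 3.98), AQP1 (9.36 ± 2.05), AQP7 (0.567 ± 0.206), AQP5 (0.564 ± 0.439), AQP11 (0.471 ± 0.233), AQP9 (0.0201 ± 0.0313) and AQP4 at 0 (SD, n = 6). AQP3 was above AQP1, and AQP1 above AQP7, without overlap, whereas AQP7, AQP5 and AQP11 could not be ranked beyond their spread. The rank of AQP1 rests on the reads counted to its exons. Whether reads counted to the overlapping GHRHR feature come from AQP1 transcripts was not tested. Among the 13345 tested genes, the level of AQP3 per kilobase was above 49.4% of genes in late pregnancy and above 81.2% in lactation. For AQP1 these shares were 62.7% and 60.4%, and for AQP5 35.1% and 10.7%.

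The make-up of the family changed with these levels. Of the summed level of the 7 genes per kilobase, AQP1 made up 48.5 ± 7.94% in late pregnancy and 25.9 ± 6.07% in lactation. The share of AQP3 was 29.8 ± 9.27% and 69.7 ± 6.38%, and its 15.2 to 46.4% in late pregnancy did not overlap with its 59.1 to 76.3% in lactation. AQP5 held 2.50 to 36.9% of the sum in late pregnancy and, in lactation, 0.700 to 3.62%. The shares do not depend on the scaling between libraries. They take AQP1 by the reads counted to its exons, so reads counted only to the overlapping GHRHR feature are left out. The summed level itself was 15.5 to 23.7 CPM per kilobase in late pregnancy and 31.3 to 40.8 in lactation.

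**Figure D3:**
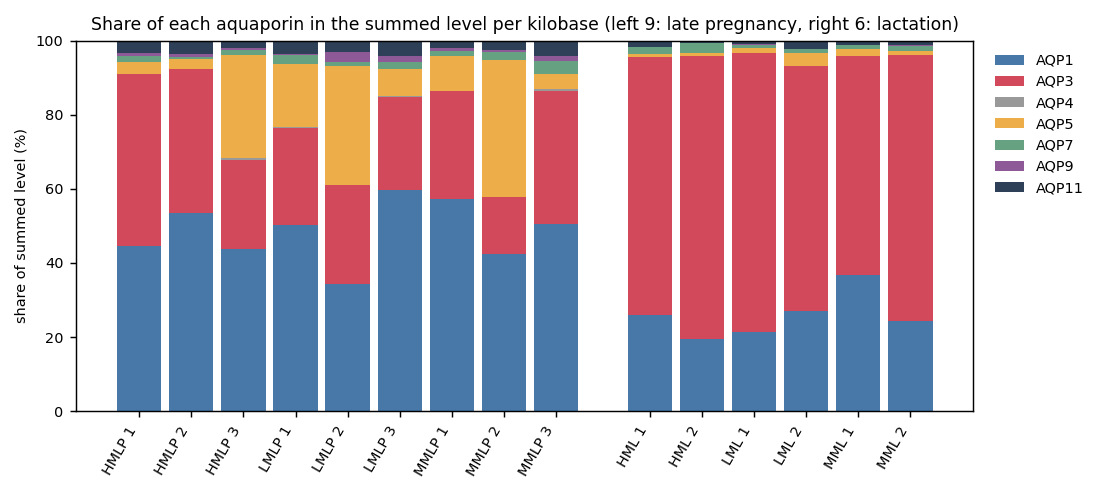
Share of each aquaporin in the summed level per kilobase of exon (%) in every library, late pregnancy on the left and lactation on the right. AQP1 and AQP3 together make up most of each bar. AQP3 averages 29.8% in late pregnancy and 69.7% in lactation, and AQP5 takes from 2.50 to 36.9% of the late pregnancy bars. AQP1 is taken by the reads counted to its exons, which leaves out reads counted only to the overlapping GHRHR feature.

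The kinds of reads also set the members apart. Over the late pregnancy libraries, reads outside exons were 2.79% of the reads on AQP1 and 1.65% of those on AQP3, but 79.6% (348 of 437) of those on AQP9 and 82.2% (619 of 753) of those on AQP11. The median over 12740 genes was 17.1%. AQP1 lies inside GHRHR, and how reads outside AQP1 exons were divided between these features is not known. Of the exon reads, 76.3% crossed a junction in AQP1, 26.3% in AQP3, 19.1% in AQP9 and 8.21% in AQP11, beside a median of 48.7% over 12347 genes. For AQP9 and AQP11 the exon counts thus covered a small part of the reads on the gene. What the reads outside exons come from was not tested.

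**Figure D4:**
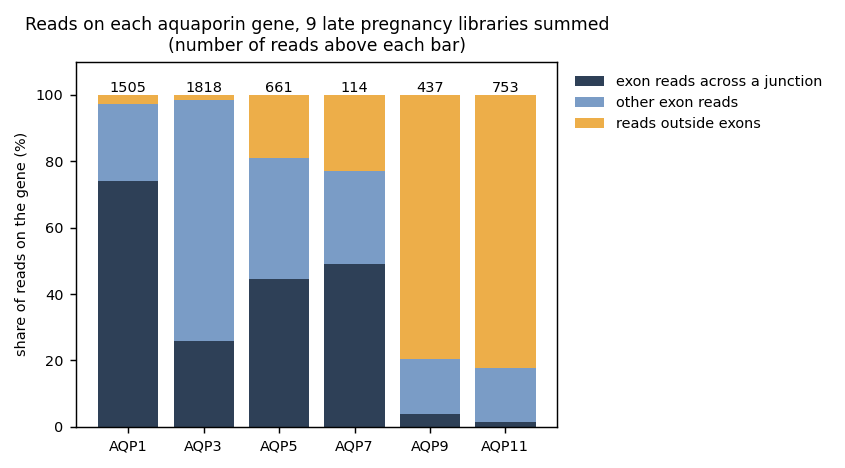
Reads on 6 aquaporin genes summed over the 9 late pregnancy libraries, split into exon reads across a junction, other exon reads and reads outside exons (% of reads on the gene, number of reads above each bar). AQP9 and AQP11 have 79.6% and 82.2% of their reads outside exons, AQP1 and AQP3 have 2.79% and 1.65%. AQP1 lies inside GHRHR, and how reads outside AQP1 exons were divided between these features is not known. AQP4, with 8 reads, is left out.

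The feed of the dams gave no called difference in any aquaporin. Among the late pregnancy libraries, 6 members were tested and 0 called, beside 0% of 13747 genes (571 had an unadjusted p under 0.05, and DESeq2 called 20 genes, none of them an aquaporin). AQP3 had the lowest p of the members (0.0328 unadjusted, edgeR adjusted p = 1): HMLP libraries had 8.87, 11.6 and 15.6 CPM, LMLP libraries 8.03, 8.06 and 9.60 CPM, and MMLP libraries 5.89, 9.12 and 9.36 CPM. The groups overlapped, with the 2 highest values in HMLP. In the test of interaction, no difference by dam feed in the change between states was called for any of 6 members. That was beside 0% of 14073 genes called (913 had an unadjusted p under 0.05, and DESeq2 called 14). For AQP3 the log2 change was 1.65 (SE 0.23) in ewes of ad libitum dams, 2.28 (SE 0.221) in those of maintenance dams and 2.42 (SE 0.22) in those of sub-maintenance dams. The interaction had an unadjusted p of 0.0687 (edgeR adjusted p = 0.78), so AQP3 rose in each feed group and a difference between the groups was not shown. AQP7, with few reads, had log2 changes of 1.62 (SE 0.541) in ewes of ad libitum dams, 0.18 (SE 0.462) for maintenance and 0.24 (SE 0.548) for sub-maintenance. Its interaction had an edgeR adjusted p of 0.82.

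Genes of processes in which aquaporins take part moved in both directions, in shares to be read beside the 33.1% of all tested genes that rose and the 35.2% that fell. Of genes for osmolytes and cell volume, 16 of 20 were tested, 7 rose and 5 fell, with a median log2 change of 0.0083. LRRC8C (log2 change 2.21, SE 0.103) and WNK4 (1.85, SE 0.149) rose most, and SLC12A2 (-1.67, SE 0.126) and AKR1B1 (-0.80, SE 0.142) fell most. LRRC8C is a subunit of the volume-regulated anion channel, WNK4 a kinase that regulates chloride cotransporters, SLC12A2 the sodium, potassium and chloride cotransporter of secretory epithelia, and AKR1B1 the enzyme that makes sorbitol. All 4 had edgeR adjusted p of 5.1e-05 or lower.

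Of 10 genes for glycerol and urea, 6 were tested, 4 rose and 1 fell (median log2 change 0.56). GK, glycerol kinase, which traps glycerol as its phosphate, rose from 12.6 ± 1.97 to 66.7 ± 7.78 CPM (log2 change 2.42, SE 0.096, edgeR adjusted p = 2.3e-14). GPD1, which links glycerol phosphate to glycolysis, rose by 0.87 (SE 0.105), and MGLL, which releases glycerol from monoacylglycerol, fell by 0.99 (SE 0.203) on the log2 scale.

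Of 9 genes for partners and anchors of aquaporins, 7 were tested, 3 rose and 3 fell (median log2 change 0.034). EZR, a linker between membrane proteins and actin, rose from 154.0 ± 11.1 to 360.5 ± 29.0 CPM (log2 change 1.23, SE 0.059, edgeR adjusted p = 4.1e-13). ANO1, a calcium-activated chloride channel, fell by 1.70 (SE 0.162), and AKAP5, an anchor of protein kinase A, fell by 1.27 (SE 0.236) on the log2 scale. The directions of rises under 1.94 depend on the scaling: without TMM, LRRC8C (0.30) and GK (0.51) were still higher, EZR was lower (-0.68), and 14 of 16, 5 of 6 and 6 of 7 genes of these 3 lists were lower.

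The genes whose levels followed each member most closely were sought over the 15 libraries among 10700 named genes whose mean reached 1 CPM. Without regard to state, AQP3 was most like C1H1orf210 (Pearson r = 0.986), BIN2 (0.984) and ATP2B2 (0.982), AQP5 like ARMCX1 (0.822), HOXA10 (0.820) and SRPX (0.818), and AQP1 like BPIFB1 (0.768), NDUFC2 (0.743) and HCFC1R1 (0.741). After the mean of each state was subtracted, the most alike were GTF3C3 (0.833), BIN2 (0.807) and C1H1orf210 (0.794) for AQP3. They were ARMCX1 (0.823), SP2 (0.786) and GNL3 (0.757) for AQP5, and NFATC1 (0.841), TAPBPL (0.840) and NABP2 (0.838) for AQP1. BIN2 and C1H1orf210 were among the most alike for AQP3, and ARMCX1 for AQP5, on both measures, which share the libraries and their depth. These r are the largest among 10700 genes over 15 libraries, and how large an r chance gives in such a search was not tested. Likeness beyond chance is thus not shown for any of these genes. Without regard to state, r also takes in the change between the states. AQP3 and AQP5 had an r of -0.54 within states.

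Over the alternative ways of processing the counts, leaving out each library included, AQP3 was called in 29 of 30. AQP5 was called in 26 of the 27 in which it passed the filter, and it failed the filter in the rest. As AQP5 passed the main filter through late pregnancy alone, counting only the settings it passed favours a fall. These alternatives reuse the same libraries, so they are not independent tests. AQP1 was called in 2 of 30 and AQP11 in 2 of 29.

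**Figure D5:**
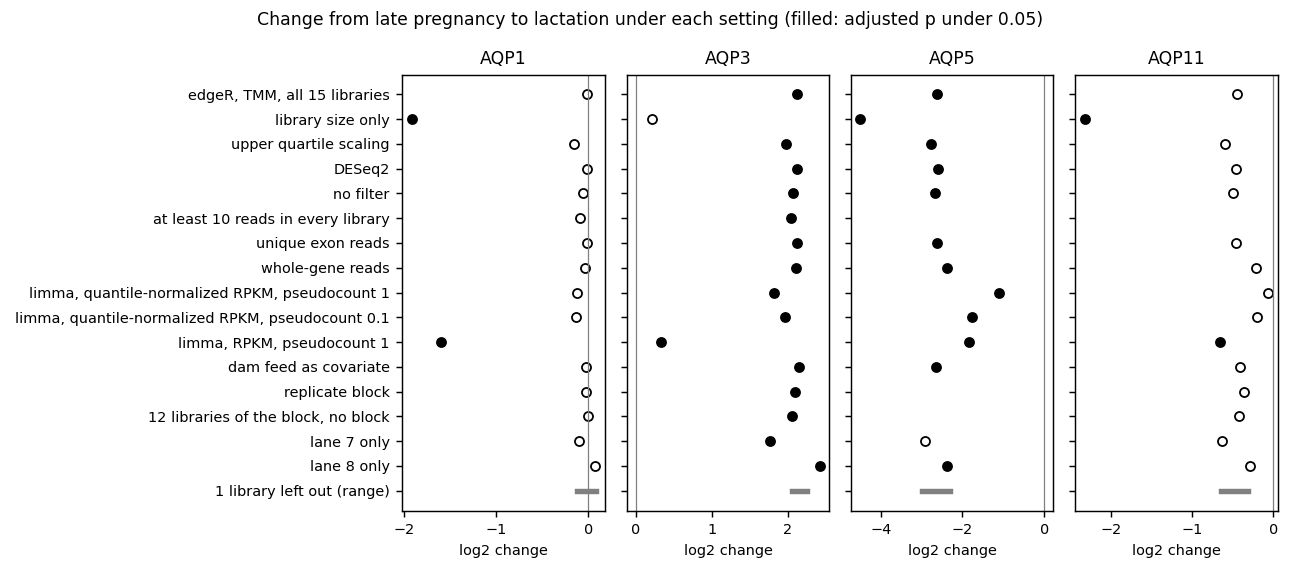
Log2 change from late pregnancy to lactation of the 4 members tested, under each processing setting (points, filled where the adjusted p was under 0.05) and when each library is left out in turn (grey bars span the lowest and highest value). AQP1 sits near 0 except where libraries are scaled by total reads (-1.91 and -1.60), and AQP3 stays between 1.77 and 2.42 except in the same settings (0.21 and 0.32).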

How the data were processed

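RNA of mammary biopsies was pooled (per the labels 3 ewes per late pregnancy and 2 per lactation pool; the methods give 3 for each) and sequenced as 15 unstranded libraries of paired reads. The authors mapped reads to the sheep genome in CLC Genomics Workbench. The deposited table holds the authors' read counts on exons, junctions and whole genes. The deposited RPKM values are the authors' reads per kilobase of exon per 1000000 reads on genes (recomputed to within 3.5e-07 of their size), and the authors' normalized RPKM are these after quantile normalization. The deposited coverage columns hold the authors' median read depth over exons and were not used. Columns of the authors' own fold changes and p-values were not used.

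Exon reads, or whole-gene reads for the 5583 features with no annotated transcript, were tested with edgeR 4.0.16 in R 4.3.3 (filterByExpr, TMM, quasi-likelihood F-test, Benjamini-Hochberg adjustment over all tested genes). Late pregnancy was compared with lactation, the 3 dam feed groups with each other in late pregnancy, and the change with dam feed by interaction. Reads outside exons are whole-gene less exon reads. Every member, whether or not it passed the filter, had an exact permutation test, added after the data were seen. Intervals of counts cover counting error only. The main tests set differences against the spread between pools, which were taken as independent. Alternatives used DESeq2 1.42.0 and limma 3.58.1, other scalings, filters, reads and libraries. Scripts were tested on simulated data.

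The members, marker lists and gene lists were chosen with earlier results of these data known. Named genes were all members and other family rows, for each list its 2 largest called rises and falls (a gene that this rule names is not reported here), markers at 0 or with the largest change, and the 3 genes most like each member of at least 1 CPM. Fibroblast markers summed to 353 to 627 CPM in late pregnancy and 225 to 372 CPM in lactation (3 of 4 lower), and myoepithelial markers to 708 to 791 and 655 to 955 CPM (2 of 7 lower, 3 higher). Of luminal markers 4 of 7 were higher. Without TMM scaling, all 7 luminal, 7 myoepithelial and 4 fibroblast markers tested were lower, and 4 of 5 macrophage markers. KRT1 was at 0 in lactation.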

Additional observations from a re-analysis of the deposited data

Results flagged for a closer look

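In lactation, the AQP5 level of LML 2 (1.14 CPM, 6 reads) lay far above the other 5 libraries, the nearest being 0.435 CPM, and its gap made up 0.732 of the group's range (Dixon's 95% limit 0.625). In late pregnancy, the AQP9 level of LMLP 2 (1.18 CPM, 35 reads) lay above the nearest library, at 0.646 CPM, by 0.517 of the range (limit 0.493). LMLP 2 is also the library with skin keratinocyte markers at 56.9 CPM, and the part of these in its AQP9 level was not tested. Chance flags about 1 in 20 groups, and 13 groups of values were looked at.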

How the results depend on the processing

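Of 148 log2 changes of members recomputed under alternatives, 136 kept their direction and their side of the threshold, and all 184 adjusted p of members for dam feed and interaction stayed over it. Of the members tested, 2 were called with each library left out in turn. The count of members called was 1 of 2 with at least 10 reads in every library, beside 7216 of 10079 genes. It was 1 of 3 with the replicate block (8324 of 12893 genes) and 1 of 3 over the same 12 libraries without the block (8496 of 12893). With lane 7 only it was 1 of 4 (6914 of 13287 genes). On library sizes alone it was 3 of 4, all lower (13057 of 13345 genes), and without the filter 3 of 7 (9872 of 19350). On whole-gene reads it was 4 of 6 (9849 of 14355 genes), and with limma on RPKM 4 of 4 (12939 of 13345). All other settings gave 2. AQP5 did not pass the filter with at least 10 reads or over the 12 libraries, and AQP7 and AQP9 passed it on whole-gene reads. The cause of the other differences was not tested. Whether same-numbered pools share ewes was not settled. Correlations of the deviations of same-numbered pools were -0.0232 to 0.0651. With 2 lactation pools per feed group, the values for other-numbered pools are the same with the sign reversed, so they give no separate comparison. With the replicate block 8324 genes were called between states, beside 8496 without it, and 2 genes for the interaction. The log2 change of AQP1 was 0.071 in lane 8 only, and ran from -0.12 to 0.078 with each library left out (0.030 without LMLP 3, 0.021 without MMLP 1, 0.0081 without HML 1, 0.078 without HML 2 and 0.019 without LML 1), never called.

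Leaving out libraries, AQP3 ran from 2.05 to 2.25, AQP5 from -2.99 to -2.31 (adjusted p 0.0035 to 0.021) and AQP11 from -0.64 to -0.31. On library sizes alone 97.3% of called genes were lower, with limma on RPKM 97.1% (median gene -1.30) and with upper quartile scaling 63.7% (median gene -0.18), beside 51.6% with TMM. AQP11 was called at -0.66 with limma on log2(RPKM + 1), where the pseudocount of 1 compresses its values, all near or under 1 RPKM. With all genes tested, DESeq2 called 20 genes for dam feed and 14 for the interaction, and leaving out libraries gave 0 to 1 (1 without LMLP 1) and 0 to 10 (10 without HML 2, 2 without LML 2), where the lone pool left in a group is assumed to vary like the others. Few reads limit AQP4, AQP7 and AQP9, and in lactation AQP5 and AQP11.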
